A study of Homo sapiens with 6 samples.

Results

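The collagen genes are the rows of the expression table whose symbol has the form COL, a number, A and a number, each of which encodes 1 alpha chain of a collagen. The symbol alone chose them, and 40 of the 33007 genes in the table met it. The family was taken up with its fold changes in these same samples already known, so every value below for a collagen gene describes the samples and is no independent evidence of a change. The RNA came from LM3 cells, an established human hepatocellular carcinoma line. Stable lines were made with lentivirus and puromycin, and 3 samples carried the control vector (control) and 3 carried pLKO.1-shZNF706, a short hairpin RNA against the zinc finger gene ZNF706 (knockdown). All 6 samples bear the same cell line, tissue and genotype labels and differ only in the treatment label. The sources used here do not say which hairpin was sequenced, whether a line came from 1 clone, or whether the 3 samples of a group were separate cultures, so a p-value here measures only the spread between these samples. The question was which transcripts differ when ZNF706 is depleted. Total counts were 62684076, 64713764 and 63054445 in control replicates 1 to 3 and 68548419, 65861994 and 69057423 in knockdown replicates 1 to 3.

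Collagens are secreted or membrane proteins in which 3 alpha chains wind into a triple helix. Fibrillar collagens form the banded fibers of connective tissue, collagen IV forms the sheet-like network of basement membranes, and collagen VI forms beaded filaments around cells. The chains are hydroxylated and glycosylated in the endoplasmic reticulum, trimmed after secretion and then cross-linked. In the liver, scar collagen is known to be made mainly by activated stellate cells, while carcinoma cells can make collagens of their own.

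ZNF706 itself was measured first. Its level as CPM (counts relative to library size, scaled by the trimmed mean of M values) was 51.9, 55.1 and 54.7 in controls and 33.5, 30.8 and 32.8 in knockdown cells. The groups did not overlap, and ZNF706 fell by 0.73 on the log2 scale (SE 0.050, edgeR's quasi-likelihood test, adjusted p = 3.7e-05). Of 18390 genes with enough counts to test, 1906 (10.4%) were called higher and 2286 (12.4%) lower in knockdown cells at an adjusted p below 0.05. With library size alone as the scaling, the same split was 2742 higher and 1518 lower.

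KRT8 and KRT18, the keratin pair of simple epithelia, had mean FPKM (fragments relative to gene length and library size) of 196 and 266, while the epithelial markers CDH1, EPCAM and KRT19 had 0.375, 0.178 and 0.663. The hepatocyte products ALB, AFP and TTR had mean FPKM of 2.17, 0.65 and 0.04, and the liver transcription factor HNF4A 0.097. The 7 hepatocyte or liver cancer markers summed to FPKM of 3.57, 7.52 and 8.80 in controls and 3.40, 3.67 and 2.71 in knockdown cells. All 7 were tested, and 2 were called lower and 0 higher in knockdown cells, beside 12.4% and 10.4% of all tested genes, namely APOB (log2 fold change -0.98, edgeR adjusted p = 0.021, a call kept in 2 of the 6 fits that leave out a sample) and SERPINA1 (-1.47, edgeR adjusted p = 0.0034). Of the 5 epithelial markers, all tested, 0 were called. At an unadjusted p below 0.05 with a log2 fold change of at least 0.3 in size, 2 epithelial markers were higher and 0 lower. At the same limits 3 hepatocyte or liver cancer markers were lower and 0 higher, beside 9.61% of all tested genes higher and 5.88% lower. The defining genes of hepatocytes were thus low under a hepatocellular carcinoma label.

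Of the 40 collagen genes, 30 had enough counts to be tested, 10 were called higher in knockdown cells, 2 lower and 18 neither. These are shares to set beside the 10.4% and 12.4% of all tested genes above, and the comparison is descriptive because the contrast was known. The median log2 fold change was 0.16 over the 30 tested collagen genes, 20 of them above 0, and 0.0095 over all 18390 genes. The control and knockdown CPM did not overlap for 18 of the 30, with knockdown above control for 13 and below for 5. Over all tested genes, knockdown lay above control without overlap for 19.7% and below it for 19.7%. With control replicate 1 left out, 7 collagen genes were called higher and 1 lower, beside 7.74% and 9.84% of all genes tested in that fit. With knockdown replicate 2 left out, 6 were higher and 1 lower, beside 6.01% and 7.85%. The 4 largest called differences were those of COL6A3, COL9A2, COL6A2 and COL6A1. In collagen IV 5 of 6 tested chains were not called. With 22.8% of all tested genes called in either direction, nothing is read from that count.

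**Figure D1:**
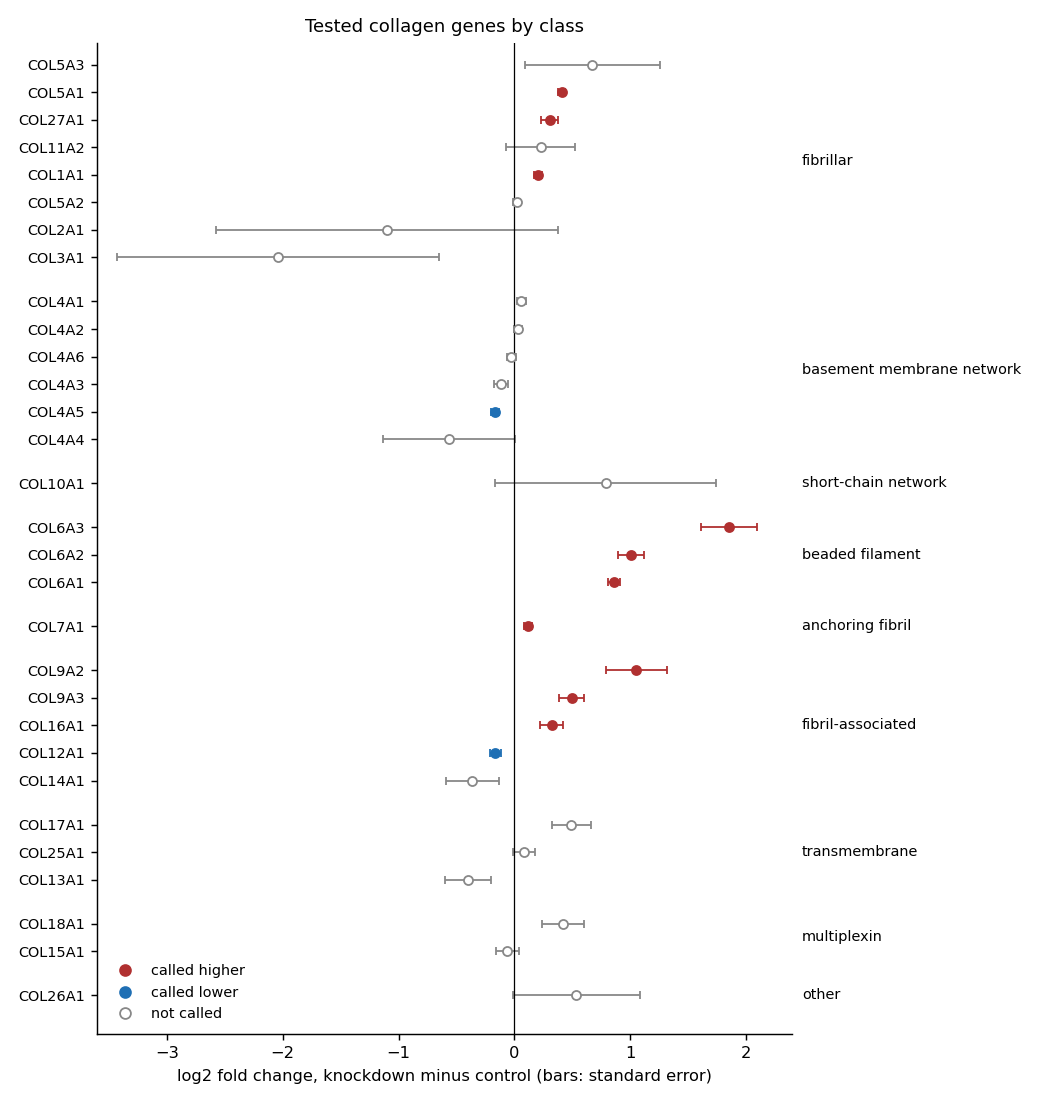
Log2 fold change of knockdown over control (x axis, bars 1 standard error) for the 30 tested collagen genes, grouped by the structure their chains form. Filled points are called higher (10 genes) or lower (2 genes), and open points are not called. The 3 collagen VI chains lie between 0.86 and 1.86, and the widest bars belong to COL2A1 and COL3A1, which were at 0 counts in some samples.

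Upstream sequence is shown for the collagen genes that were called higher and whose gene start in the table is also the RefSeq start, with at least 200 bases outside any annotated exon. COL6A2, COL5A1 and COL27A1 met this. The sequences are RefSeq, build GRCh38.p14, plus strand, 5′ to 3′, and stop at the base before the first annotated exon. COL6A2 is chr21:46097862-46098096, COL5A1 is chr9:134641553-134641773 and COL27A1 is chr9:114155287-114155536. Capitals mark a GC box (GGGCGG on either strand, so CCGCCC on the printed strand is also marked) or a TATA box (TATAAA on either strand).
COL6A2: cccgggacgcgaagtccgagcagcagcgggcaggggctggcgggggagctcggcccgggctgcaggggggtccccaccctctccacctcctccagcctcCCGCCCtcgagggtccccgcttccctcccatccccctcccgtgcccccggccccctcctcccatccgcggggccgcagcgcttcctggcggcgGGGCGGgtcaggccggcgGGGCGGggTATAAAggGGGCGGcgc
COL5A1: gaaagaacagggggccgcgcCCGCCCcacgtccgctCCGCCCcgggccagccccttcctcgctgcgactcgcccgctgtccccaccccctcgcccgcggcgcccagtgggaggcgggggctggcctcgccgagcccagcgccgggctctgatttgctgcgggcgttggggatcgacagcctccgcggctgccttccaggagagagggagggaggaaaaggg
COL27A1: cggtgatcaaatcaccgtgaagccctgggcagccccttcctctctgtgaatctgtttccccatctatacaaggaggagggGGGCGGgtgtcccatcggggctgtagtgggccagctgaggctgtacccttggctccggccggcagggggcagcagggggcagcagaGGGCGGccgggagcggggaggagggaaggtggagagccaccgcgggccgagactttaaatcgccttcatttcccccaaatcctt
The COL6A2 window held 1 TATA box and 4 GC boxes, with a GC content of 79.6%. Among all 34796 RefSeq promoters read in a window of the same length, 10.5% held a TATA box and 40.6% a GC box. The COL5A1 and COL27A1 windows held 2 GC boxes each and no TATA box, with GC contents of 75.6% and 64.4% against a median of 58% over all promoters. A GC box stood in 39.0% and 42.6% of all promoters at those 2 window lengths. The letters CCAAT and TGANTCA, the latter an AP-1 site, were not in any of the 3 windows. No window is shown for COL6A1, COL1A1 and COL9A3.

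Collagen VI is built from the chains of COL6A1, COL6A2 and a longer chain such as that of COL6A3, and links cells to the surrounding matrix. COL6A1 (ENSG00000142156, chr21:45981769-46005050, plus strand of GRCh38) had 56.9, 49.1 and 49.9 CPM in controls and 94.4, 95.1 and 93.3 CPM in knockdown cells. All knockdown samples lay well above all controls, with a log2 fold change of 0.86 (SE 0.054), a 1.82-fold difference. COL6A2 (ENSG00000142173, chr21:46098112-46132848, plus strand), whose upstream sequence is printed above, lies 93061 bases beyond COL6A1 in the same orientation. Its CPM was 13.4, 9.88 and 10.8 in controls and 22.9, 22.2 and 23.4 in knockdown cells, a log2 fold change of 1.01 (SE 0.11). Both neighbours were thus near a doubling, and neither overlaps another gene with counts in the table. COL6A3 (ENSG00000163359, chr2:237324003-237414207, minus strand) had 49, 72 and 51 counts in controls and 177, 262 and 249 in knockdown cells. These are few counts, at 0.918 ± 0.187 and 3.33 ± 0.719 CPM (SD, n = 3 each), but the groups were clear of each other and the log2 fold change of 1.86 (SE 0.24) was the largest of any called collagen gene. COL6A6 had at most 5 counts in any sample and was not tested.

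Per length, the 3 chains were far from equal. Mean FPKM over the 6 samples was 12.1 for COL6A1, 2.82 for COL6A2 and 0.095 for COL6A3. The FPKM ratio of COL6A1 to COL6A2 was 4.64 ± 0.368 in control and 4.15 ± 0.148 in knockdown cells (SD, n = 3), and the ratios of single samples overlapped. The 4 collagen VI genes in the table summed to FPKM of 11.5, 9.60 and 9.79 in controls, with a mean of 10.3 ± 1.06, and to a mean of 19.8 ± 0.106 in knockdown cells. Their share of all collagen FPKM was 5.96% to 6.84% in controls and 10.5% to 10.7% in knockdown cells. Summed over all 40 collagen genes, FPKM was 162.6 ± 5.20 in control and 186 ± 2.16 in knockdown cells, a ratio of 1.14. FPKM is divided by gene length and by library size without TMM scaling. The TMM-scaled CPM used for single genes is not divided by length, so long genes weigh more in its sum. By that CPM the sum was 1922 ± 42.0 and 2077 ± 22.0, a ratio of 1.08. The ratio for the collagen VI genes was 1.92 by FPKM and 1.88 by CPM, and for the fibril-associated genes it turned from 1.03 by FPKM to 0.950 by CPM.

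**Figure D2:**
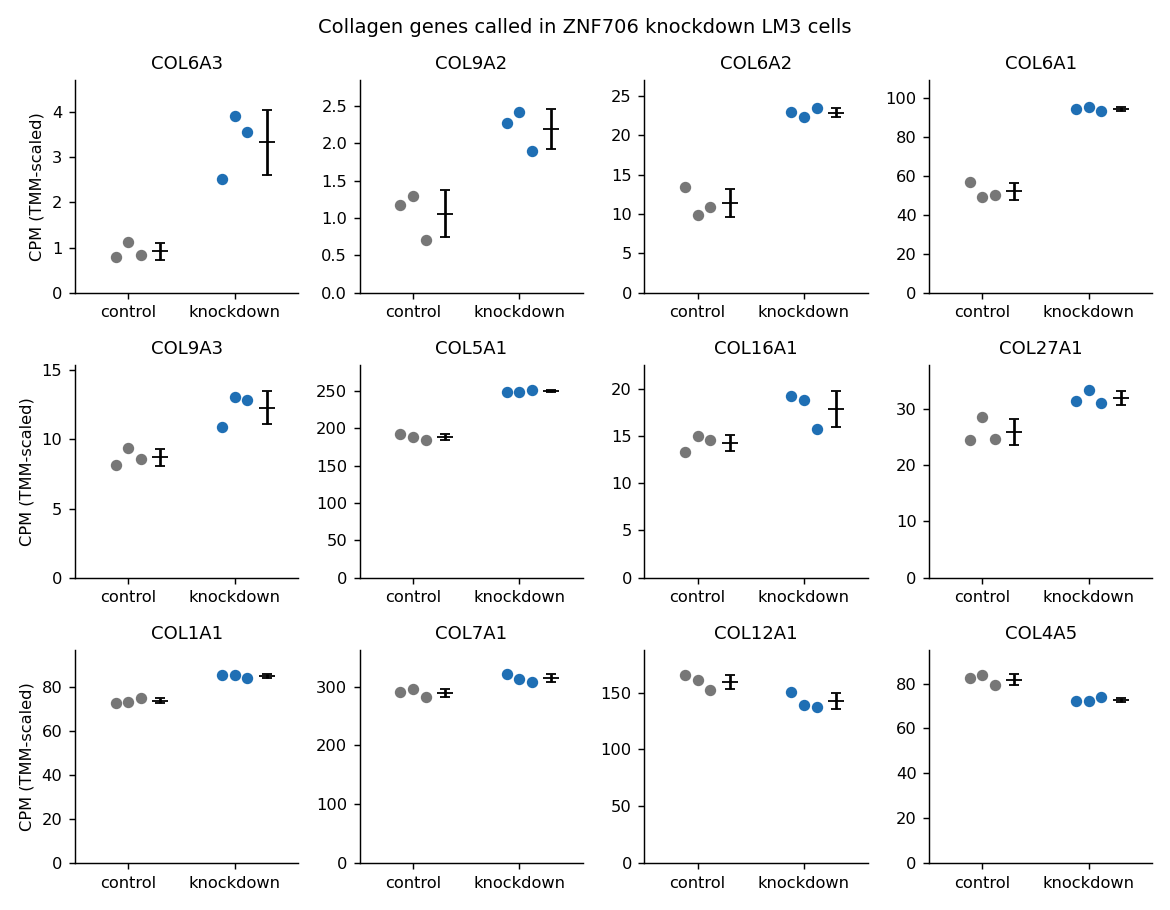
Scaled CPM (y axis, starting at 0 in each panel) of the 12 called collagen genes in each of the 3 control (grey) and 3 knockdown (blue) samples, with the mean and SD in black. No panel has overlapping groups, and the gap is widest relative to the level for COL6A3, from 0.918 to 3.33 on average, and narrow for COL7A1, from 290 to 314.

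Among the fibrillar collagens, 3 of 8 tested chains were called higher and 0 lower, beside 10.4% and 12.4% of all tested genes, and nothing is read from this count. COL5A1, the chain of collagen V that helps set fibril diameter, had 193, 188 and 184 CPM in controls and 249, 249 and 251 CPM in knockdown cells. The 3 knockdown values stood close together above the controls, and the log2 fold change was 0.41 (SE 0.032). The gene (ENSG00000130635) lies at chr9:134641803-134844843 on the plus strand, and its antisense partner COL5A1-AS1 had 15 to 24 counts per sample against at least 11309 for COL5A1. COL5A2, its partner chain, was the most abundant collagen gene per length at a mean FPKM of 51.1, with 431, 417 and 424 CPM in controls and 439, 422 and 428 CPM in knockdown cells. These ranges overlapped, and the log2 fold change was 0.018 (SE 0.031). The FPKM ratio of COL5A2 to COL5A1 was 3.44 ± 0.0638 in control and 2.62 ± 0.0588 in knockdown cells (SD, n = 3), with no overlap between single samples.

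COL1A1, which encodes the main chain of collagen I, had 72.8, 73.3 and 75.2 CPM in controls and 85.5, 85.3 and 84.0 CPM in knockdown cells. Every knockdown sample was above every control, at a log2 fold change of 0.20 (SE 0.034). Its gene (ENSG00000108821) lies at chr17:50184101-50201632 on the minus strand. COL27A1, a fibrillar collagen best known from cartilage, had 24.5, 28.5 and 24.6 CPM in controls and 31.4, 33.3 and 31.0 CPM in knockdown cells. Its log2 fold change was 0.30 (SE 0.075), but the call was lost without control replicate 1 (0.26), control replicate 3 (0.27) or knockdown replicate 2 (0.27). COL11A2, with 36 to 62 counts, COL5A3, with 11 to 33, and COL2A1, with 0 to 16, were tested and not called.

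COL1A2, the second chain of collagen I, had 117, 8 and 0 counts in controls and 0, 0 and 119 in knockdown cells. Its high samples fell 1 in each group, so its level did not follow the groups, and the filter on low counts left it untested. COL3A1, the chain of collagen III, had 336, 0 and 48 counts in controls and 42, 61 and 0 in knockdown cells. Control replicate 1 held 69.0% of all COL3A1 counts, and the fitted log2 fold change of -2.04 (SE 1.4) became 0.36 without it. COL11A1 had 122, 0 and 4 counts in controls and 8, 4 and 84 in knockdown cells. These 3 genes were the only collagen genes with at least 50 counts in 1 sample and 0 in another. COL24A1 had no count in any of the 6 libraries.

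**Figure D3:**
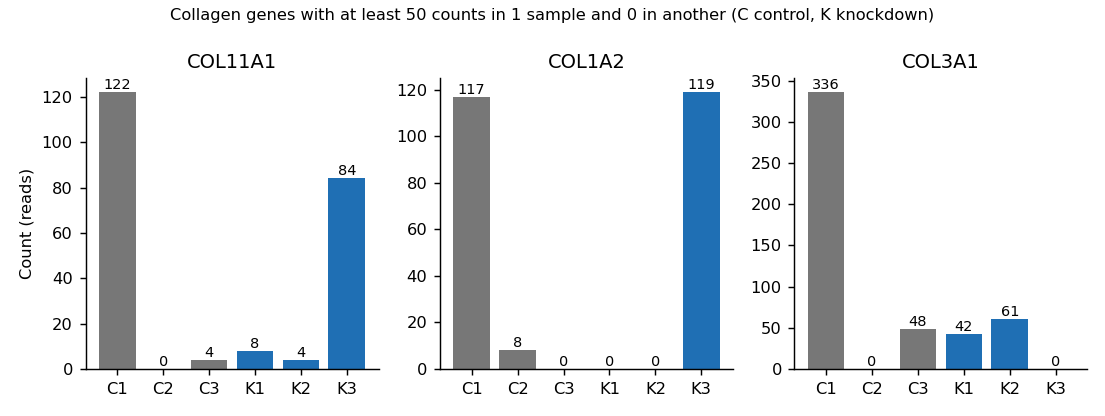
Counts (y axis, reads, with the number above each bar) of COL11A1, COL1A2 and COL3A1 in control replicates 1 to 3 (C1 to C3, grey) and knockdown replicates 1 to 3 (K1 to K3, blue). Control replicate 1 is high for all 3 genes, knockdown replicate 3 for COL11A1 (84) and COL1A2 (119), and the remaining samples have at most 61.

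Some genes of fibroblasts and stellate cells, the usual makers of these fibrillar collagens, moved in the same direction as collagen VI. Of the 10 listed markers, 7 were tested, and 3 were called higher and 0 lower in knockdown cells by edgeR's quasi-likelihood test, beside 10.4% and 12.4% of all tested genes. PDGFRB, the receptor for platelet-derived growth factor, was at 0.68 on the log2 scale (adjusted p = 0.0030), the surface protein THY1 0.48 (adjusted p = 0.0090) and the surface protease FAP 0.74 (adjusted p = 0.0033). The other 4 were not called, with log2 fold changes of -0.087 for ACTA2, -0.039 for DCN, 0.063 for DES and -1.26 for LUM. At an unadjusted p below 0.05 with a change of at least 0.3 in size, 3 of the list were higher and 1, LUM, lower. All tested genes were at 9.61% higher and 5.88% lower at these limits. The list summed to FPKM of 5.95, 5.27 and 5.52 in controls and 7.01, 7.35 and 6.88 in knockdown cells, and THY1 was its most abundant gene at a mean FPKM of 2.32. The defining genes LRAT and POSTN were at 0 in 5 of the 6 samples each, and DCN had 15 to 49 counts. Control replicate 1, the library that was high in COL3A1, was also the highest in PDGFRA, with 29 counts against 0 to 6 elsewhere, and in LUM, with 163 against 18 to 74. Knockdown replicate 3, with 119 counts of COL1A2 and 84 of COL11A1, had 6 of PDGFRA, the lowest LUM count (18) and 0 of COL3A1. The part of such cells in the collagen values was not tested. A different number of cells of a type cannot be told apart from a different RNA level per cell in these bulk samples. Of other cells, 1 of 2 tested endothelial markers and 1 of 3 tested leukocyte markers were called, beside 22.8% of all tested genes in either direction, so nothing is read from these counts. The endothelial cadherin CDH5 was at -0.70 on the log2 scale (adjusted p = 0.0014) and the endothelial gene PECAM1 at 0.15, not called. For leukocytes, the macrophage gene CD68 was at 0.64 (adjusted p = 0.00011), while the pan-leukocyte gene PTPRC had at most 8 counts. Summed over the 4 leukocyte markers in the table, FPKM was 11.0 ± 0.232 in control and 17.3 ± 0.800 in knockdown cells (SD, n = 3 each).

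Of the 6 collagen IV genes of the basement membrane, all tested, 1 was called, beside 22.8% of all tested genes in either direction, so nothing is read from this count. In level, 5 of them had a mean FPKM above 1. COL4A1 and COL4A2, whose products form the common collagen IV trimer, lie head to head on chromosome 13, on opposite strands, and their annotated gene bodies overlap at their starts. COL4A2 (chr13:110305812-110513209) had 291, 278 and 278 CPM in controls and 289, 296 and 282 CPM in knockdown cells. COL4A1 (chr13:110148963-110307157) had 157 ± 6.75 and 163 ± 1.58 CPM (SD, n = 3). Neither pair of groups was separate, at log2 fold changes of 0.033 (SE 0.034) and 0.059 (SE 0.039). Their FPKM ratio, COL4A2 to COL4A1, was 1.37 ± 0.0341 in control and 1.35 ± 0.0330 in knockdown cells.

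COL4A5, a chain of the collagen IV of kidney glomeruli and some other basement membranes, was the only collagen IV gene called. Its CPM was 82.3, 83.9 and 79.2 in controls and 72.1, 72.2 and 73.9 in knockdown cells, a log2 fold change of -0.17 (SE 0.036). The call did not hold with library size alone as the scaling (-0.12) or with limma on log2 FPKM (-0.12). COL4A6, which lies beside COL4A5 on chromosome X, was at 86.3 ± 3.43 and 84.7 ± 1.77 CPM. COL4A3 had 1838 to 2091 counts per sample and a log2 fold change of -0.12 (SE 0.060) that was not called although its groups did not overlap. The annotated span of an antisense gene with 61 to 131 counts covers much of COL4A3. The strand setting is not stated and shared exons were not checked, so how far their reads can be told apart is not known. COL4A4 had 10 to 18 counts. As a class, collagen IV made up 23.8% to 23.9% of collagen FPKM in controls and 21.2% to 21.6% in knockdown cells, while its summed FPKM was 38.8 ± 1.25 and 39.8 ± 0.327 (SD, n = 3) and its summed CPM 639 ± 15.8 and 639 ± 5.69.

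COL7A1, the anchoring fibril collagen that ties the epidermal basement membrane to the dermis, was the second most abundant collagen gene per length at a mean FPKM of 24.0. Its CPM was 290, 297 and 283 in controls and 322, 313 and 309 in knockdown cells. The groups were separate but close, with a log2 fold change of 0.12 (SE 0.033), and the call held in only 2 of the 6 fits that leave out 1 sample.

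The fibril-associated collagens, which sit on the surface of fibrils, had calls in both directions. Of 5 tested, COL9A2, COL9A3 and COL16A1 were called higher and COL12A1 lower, beside 10.4% and 12.4% of all tested genes, and nothing is read from these counts. COL9A3, a chain of the cartilage collagen IX, had 8.14, 9.36 and 8.60 CPM in controls and 10.9, 13.1 and 12.8 CPM in knockdown cells. All knockdown samples were above the controls, at a log2 fold change of 0.50 (SE 0.11). The gene (ENSG00000092758, chr20:62816244-62841159) shares 45 bases with TCFL5 on the other strand. COL9A2, its partner chain (ENSG00000049089, chr1:40300489-40317388), had 73, 82 and 43 counts in controls and 159, 162 and 133 in knockdown cells, a log2 fold change of 1.05 (SE 0.27). This call was lost without knockdown replicate 1 (1.03) or knockdown replicate 2 (0.98). COL9A1, their partner in collagen IX, was not analysed here.

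COL16A1, overlapped by an antisense gene with 0 to 31 counts, had 13.3, 15.0 and 14.5 CPM in controls and 19.2, 18.8 and 15.7 CPM in knockdown cells. Knockdown replicate 3 lay near the controls, and the log2 fold change of 0.32 (SE 0.099) stayed called in 1 of the 6 fits that leave out a sample. COL12A1, a collagen of tendon and other dense tissue, had 165, 161 and 152 CPM in controls and 150, 139 and 137 CPM in knockdown cells. The nearest samples of the groups almost met, and the log2 fold change of -0.16 (SE 0.046) stayed called in 2 of the 6 fits. COL14A1, with 71 to 104 counts, had a log2 fold change of -0.36 (SE 0.23) and was not called.

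The transmembrane collagens and the multiplexins, whose C-terminal fragments include endostatin, gave 0 calls among 5 tested genes, beside 22.8% of all tested genes in either direction. COL17A1, the hemidesmosome collagen of epithelial cells, had 179, 176 and 175 counts in controls and 327, 272 and 228 in knockdown cells. The groups did not overlap, but the knockdown samples were spread, and at a log2 fold change of 0.49 (SE 0.17) it lay just outside the threshold, as COL16A1 lay just inside it. COL18A1, the source of endostatin, had 121 to 152 counts in controls and 187 to 221 in knockdown cells, a log2 fold change of 0.42 (SE 0.18). It shares 20149 bases with SLC19A1 on the opposite strand, which had 3580 to 4024 counts. COL13A1 was at -0.40 (SE 0.20), COL25A1 at 0.083 (SE 0.099) and COL15A1 at -0.060 (SE 0.10) on the log2 scale. The 2 remaining tested genes, COL10A1 and COL26A1, had at most 28 counts in any sample.

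Apart from COL1A2, COL11A1, COL24A1 and COL6A6, the untested members were COL8A1, COL8A2, COL20A1, COL21A1, COL22A1 and COL23A1. COL8A2, a short-chain collagen of the cornea, had 0 counts in all 3 control samples and 10, 21 and 7 in knockdown cells. It was called when no filter on low counts was applied. The other 5 had at most 16 counts in any sample and were not called without that filter. Across the family, 13 genes never reached 50 counts, while 16 had a mean FPKM of at least 1 and 24 of at least 0.1. The 5 most abundant per length were COL5A2, COL7A1, COL5A1, COL4A2 and COL6A1, with COL12A1 and COL4A1 next at 10.6 and 9.57 FPKM.

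**Figure D4:**
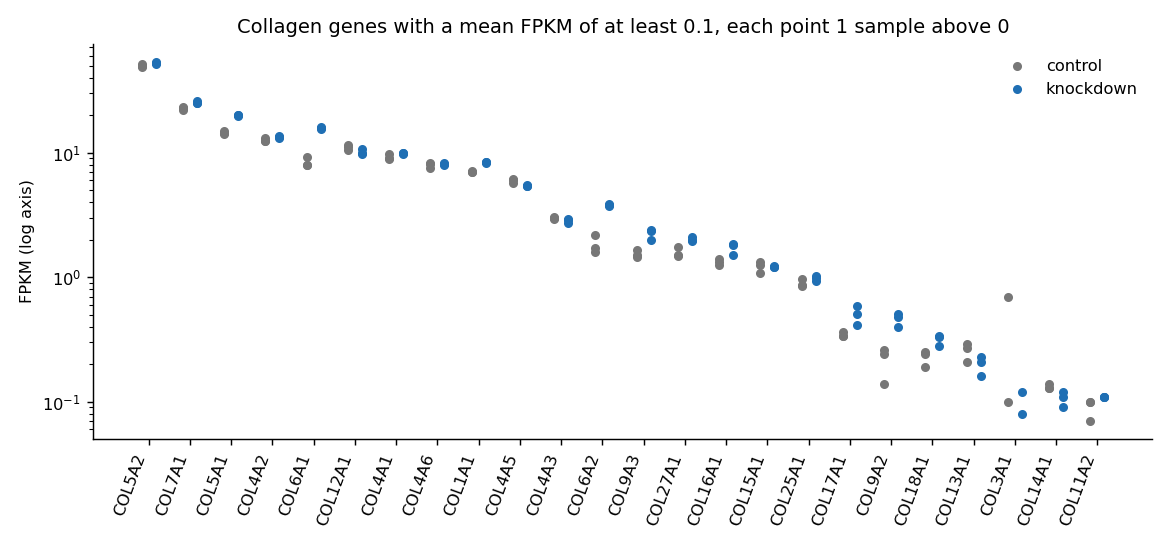
FPKM per sample (y axis, log scale) of the 24 collagen genes with a mean of at least 0.1, ordered by their mean over 6 samples, with control in grey and knockdown in blue. COL5A2 is highest at a mean of 51.1, the COL6A1 and COL6A2 groups are well separated, and COL3A1 shows 4 points because its 2 values of 0 cannot be drawn on a log axis.

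The genes that process, bind and turn over collagen were read from a list of 50, of which 46 were tested. Of these, 10 were called higher and 8 lower, beside 10.4% and 12.4% of all tested genes, and the median log2 fold change was -0.043. In prolyl hydroxylation, which gives the triple helix its stability, 4 of 10 tested genes were called higher and 2 lower. P3H4, a subunit of the complex that modifies lysines and prolines of fibrillar collagen, was 28.1 ± 1.75 CPM in control and 37.3 ± 1.41 CPM in knockdown cells (log2 fold change 0.41, SE 0.063, adjusted p = 0.0016). P4HA2, P3H1 and CRTAP were called higher with log2 fold changes of 0.27, 0.25 and 0.12, though CRTAP was called in 0 of the 6 fits that leave out a sample. P3H2, a prolyl 3-hydroxylase that acts on collagen IV, was at 9.79 ± 1.11 and 7.18 ± 0.405 CPM (-0.45, SE 0.11, adjusted p = 0.019), a call kept in 2 of the 6 fits. PPIB, the proline isomerase cyclophilin B, had the highest level of the list at a mean FPKM of 248 and a log2 fold change of -0.21 (adjusted p = 0.030), also kept in 2 of 6. P4HB, the shared subunit of the prolyl 4-hydroxylases at a mean FPKM of 119, was at 713 ± 19.1 and 703 ± 35.7 CPM and was not called (-0.022, SE 0.040).

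In lysyl modification 2 of 4 tested genes were called higher, and among the chaperone and export genes 1 of 3, with 0 lower in either group, beside 10.4% and 12.4% of all tested genes. PLOD1, a lysyl hydroxylase, had a mean FPKM of 61.5, with 328, 334 and 336 CPM in controls and 404, 403 and 431 CPM in knockdown cells. It rose by a log2 fold change of 0.31 (SE 0.035, edgeR adjusted p = 0.00035). COLGALT1, which adds galactose to hydroxylysine, had a log2 fold change of 0.18, while PLOD2 and PLOD3 were not called (-0.085 and -0.0025). The knockdown CPM of PLOD2, 306 to 322, lay below its control CPM of 328 to 333 without overlap, and DESeq2 called it lower. SERPINH1, the collagen chaperone HSP47, had 91.6, 95.5 and 94.9 CPM in controls and 113, 119 and 125 CPM in knockdown cells. The groups were separate, at 0.34 (SE 0.044, edgeR adjusted p = 0.00063). The export receptors MIA2 and MIA3 were not called.

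Outside the cell, the enhancers of procollagen C-proteinase went opposite ways. PCOLCE2 was 23.2 ± 0.835 CPM in control and 31.5 ± 0.146 CPM in knockdown cells (0.44, SE 0.060, edgeR adjusted p = 0.00088). PCOLCE was 27.9 ± 0.961 and 20.2 ± 0.838 CPM (-0.47, SE 0.068, edgeR adjusted p = 0.0012). BMP1, the proteinase itself, was at -0.12 (SE 0.040) and not called, though DESeq2 called it lower, and the N-proteinases ADAMTS2 and ADAMTS3 had 0 counts in all samples. Of the cross-linking enzymes, 1 of 6 tested was called, LOXL2, at -0.21 on the log2 scale (adjusted p = 0.0034), beside 22.8% of all tested genes called in either direction. LOXL2 shares its annotated span with ENTPD4, which had 2656 to 3336 counts, so reads of this pair may be split uncertainly.

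Among the collagen receptors, ITGA2, the alpha-2 integrin chain, had 83.6, 80.5 and 81.3 CPM in controls and 68.8, 63.8 and 56.3 CPM in knockdown cells. The knockdown samples were lower and more spread, and ITGA2 fell by 0.38 on the log2 scale (SE 0.064, edgeR adjusted p = 0.0026). DDR1, a receptor tyrosine kinase for collagen, was called higher at 0.12, a call kept in 1 of the 6 fits that leave out a sample. ITGA11, a fibroblast integrin chain, had 211 counts in control replicate 1 and 0 to 42 elsewhere, the same library that was high in COL3A1, and was not called. MRC2, the endocytic receptor that takes up collagen fragments, was 72.5 ± 2.06 CPM in control and 58.6 ± 2.28 CPM in knockdown cells (-0.31, SE 0.042, edgeR adjusted p = 0.00090). PEPD, which releases proline from the last dipeptides, was at -0.23 (edgeR adjusted p = 0.040), a call kept in 1 of 6 fits.

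FN1, the fibronectin on which collagen fibrils are laid down, had the largest called log2 fold change of the list. Its CPM was 137, 128 and 114 in controls and 207, 196 and 190 in knockdown cells, with no overlap, a log2 fold change of 0.65 (SE 0.061, edgeR adjusted p = 0.00014). SPARC, a collagen-binding matricellular protein, went the other way at -0.24 (edgeR adjusted p = 0.00089). HSPG2, NID1 and NID2, which build basement membranes with collagen IV, were at 0.049, -0.040 and -0.0035 and not called. FN1, SERPINH1, PLOD1, P3H4, PCOLCE2, PCOLCE, ITGA2, MRC2, SPARC, LOXL2, COLGALT1, P3H1 and P4HA2 were called in all 6 fits that leave out a sample, and so were COL6A1, COL6A2, COL6A3, COL5A1, COL1A1, COL9A3 and COL4A5 of the collagen genes.

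**Figure D5:**
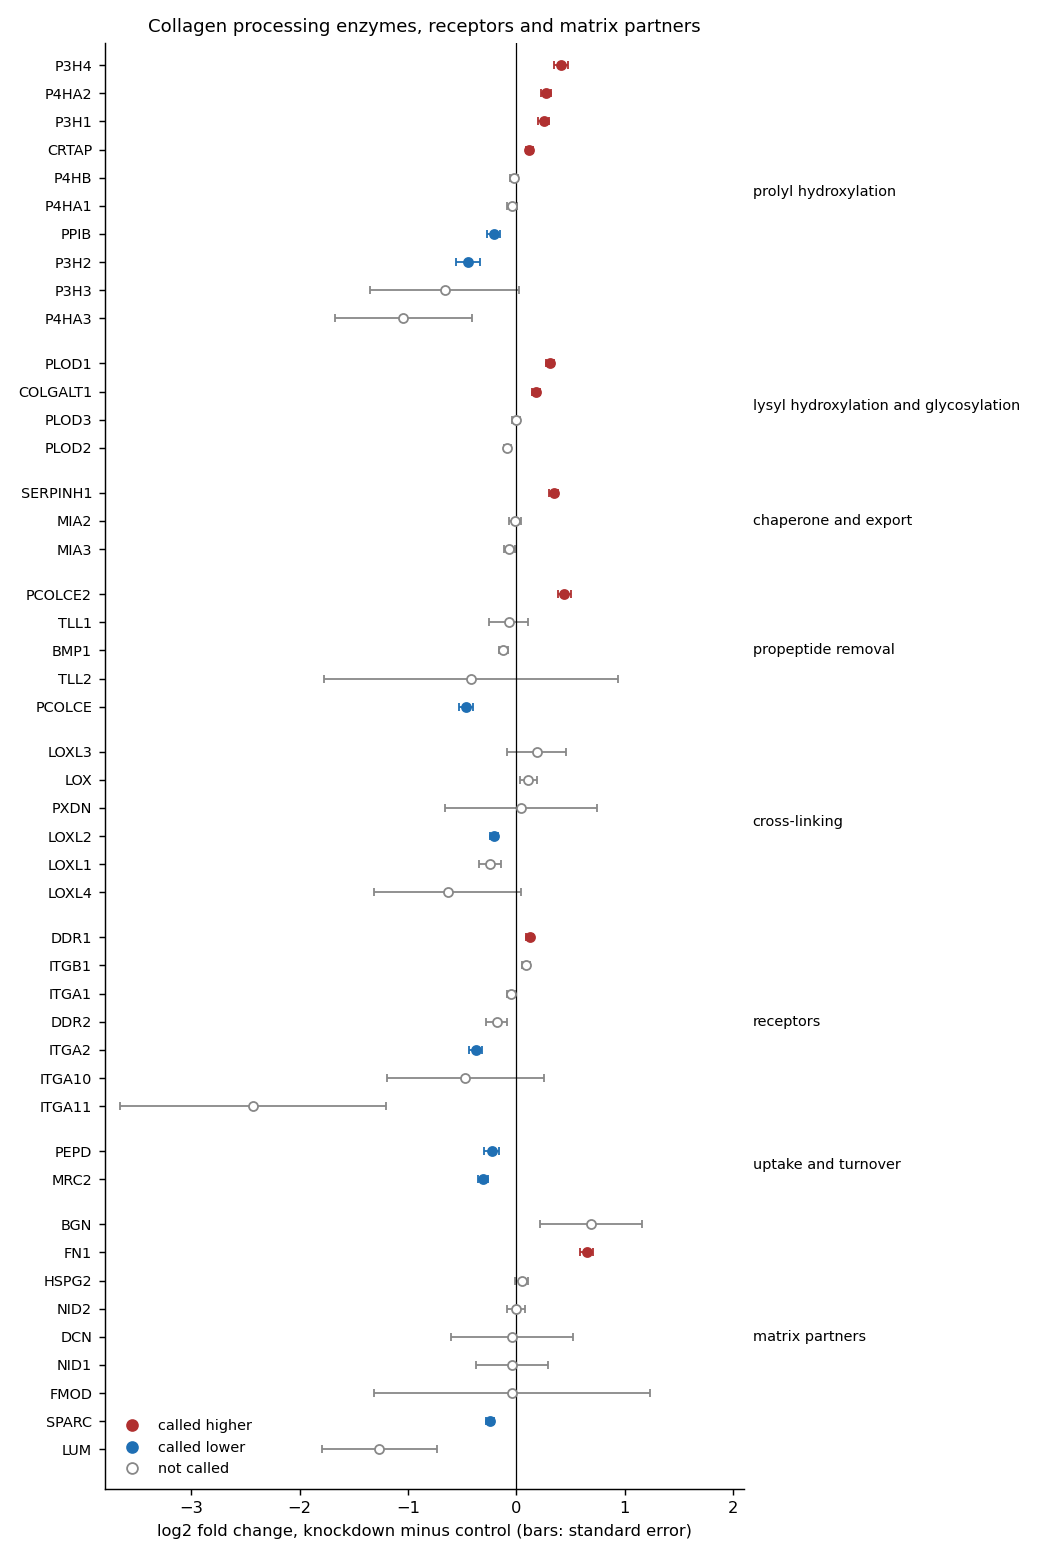
Log2 fold change of knockdown over control (x axis, bars 1 standard error) for the 46 tested processing, receptor and matrix genes, grouped by role. The 10 genes called higher reach 0.65 (FN1), the 8 called lower reach -0.47 (PCOLCE), and ITGA11 at -2.43 has a wide bar and is not called.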

How the data were processed

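Total RNA of good integrity was sequenced on an Illumina NovaSeq. Reads were aligned by the authors to the human genome with HISAT2, and the submitters' processing notes add FastQC, cutadapt 1.9 and GRCh38. The counting program, strand setting and annotation release are not given in the sources used here. The authors deposited 1 table with whole-number counts per gene, not normalized, and FPKM per gene, divided by gene length and library size. Its gene positions overlapped those of GENCODE 29 for 99.9% of 32092 shared genes. GO, KEGG and other annotation columns were not used, and 0 per-sample columns were left out.

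The quasi-likelihood test of edgeR 4.0.16 (R 4.3.3) was fitted to the counts after filterByExpr and TMM scaling, with group as the only term, and p-values were adjusted by Benjamini-Hochberg over 18390 genes. A call is an adjusted p below 0.05. An SE is the size of the log2 fold change over the root of F. The study's methods used DESeq2 with p below 0.05 (taken as unadjusted) and a limit of 0.3. These limits were tried here on the edgeR fit and not with DESeq2. Other alternatives were DESeq2 1.42.0 with adjusted p, other scalings and filters (mean count of at least 50), a replicate block, each sample left out, and limma 3.58.1 on the deposited FPKM as log2(FPKM + 0.1) with a mean FPKM of at least 1. Permuting 3 against 3 samples exactly cannot give a two-sided p under 0.1, so no such test is given. The replicates differed by more than sampling noise. Total counts were 62684076 to 69057423 per sample, so counting error is large only for genes with few counts.

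The members, the lists of collagen classes, processing genes and cell type markers, and the rules were chosen with earlier results of these data known. Per-sample values were given for called collagen genes whose groups do not overlap and for the 5 of highest mean FPKM, and processing genes were named when called with a log2 fold change of 0.3 or more in size or among the 3 of highest FPKM. Other genes named were chosen after their values were seen. COL6A5, COL9A1, COL19A1 and COL28A1 and the markers KDR and CD3E were not analysed here. RefSeq promoters matched 29 of 40 collagen genes. Those of the head-to-head collagen IV pairs are not shown because alternative first exons lie between their starts, and the 3 shown were picked after the calls were known.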

Additional observations from a re-analysis of the deposited data

How the results depend on the processing

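DESeq2's test, its size factors in edgeR, a mean count of at least 50 and the replicate block all kept the 12 collagen calls, 10 higher and 2 lower. Of all tested genes, DESeq2's test called 12.3% higher and 14.4% lower, and its size factors 10.3% and 12.7%. The mean count limit, under which 25 collagen genes were tested, gave 14.9% and 16.6%, and the replicate block 10.7% and 13%. The replicate numbers did not pair the samples (correlation of same-numbered deviations 0.027, -0.028 and 0.029 over 14125 genes), and with the replicate block 4361 genes were called in place of 4192. Library size alone as scaling called 11 collagen genes higher and 0 lower, lost COL4A5 and COL12A1 and added COL17A1. It called 2742 (14.9%) of all genes higher and 1518 (8.25%) lower. Without the filter, 39 collagen genes were tested, and 8 were higher and 1 lower. Beside them stood 1253 (4%) of all 31319 genes tested higher and 1737 (5.55%) lower. limma on log2 FPKM, which tested 16 collagen genes, gave 8 higher and 0 lower, beside 2279 and 1539 of all 11399 genes it tested. The study's limits, applied to the edgeR fit and its unadjusted p, gave 10 higher and 0 lower, having lost COL7A1, COL1A1, COL4A5 and COL12A1 and added COL17A1 and COL18A1, 5 processing genes higher and 5 lower, and 1767 of all genes higher and 1081 lower. The cause of these changes was not tested. COL6A3 and COL9A2 were absent from the limma fit, which tested fewer genes. COL4A5 and COL12A1 were tested in it and not called.

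Leaving out 1 sample at a time, the collagen calls ranged from 6 to 11 higher and 1 to 2 lower, the processing genes from 8 to 10 higher and 5 to 8 lower, and all calls from 2648 to 3424, with 1148 to 1485 higher and 1500 to 1939 lower. The lowest of each came without knockdown replicate 2, apart from ties. ZNF706 stayed called, between -0.77 and -0.70. Among the genes whose fold change is given, signs turned for 10, none of them called. With library size alone COL4A6 was 0.027, P4HB 0.032, PLOD3 0.051, NID2 0.051, NID1 0.012 and DCN 0.0097. With limma COL4A6 was 0.023, P4HB 0.026, PLOD3 0.046 and NID2 0.043. With a mean count of at least 50, PLOD3 was 0.0024 and NID2 0.0016, and with the replicate block NID1 was 0.027. With a sample left out, COL3A1 ranged from -2.78 to 0.36, P4HB from -0.064 to 0.0023, PLOD3 from -0.015 to 0.017, DCN from -0.36 to 0.48, HSPG2 from -0.0073 to 0.098, NID1 from -0.32 to 0.39, NID2 from -0.076 to 0.066, ACTA2 from -0.59 to 0.21 and DES from -0.051 to 0.15. Calls not made by edgeR on all samples were made by DESeq2 for PLOD2, BMP1 and LUM (-0.087, -0.12 and -1.27). They were also made without knockdown replicate 1 for PLOD2 and BMP1 (-0.11 and -0.15). COL17A1 was called without knockdown replicate 3 (0.62), and ITGA11 without control replicate 2 (-3.02).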
